A study of Homo sapiens with 14 samples.

Results

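The open chromatin of human chromosome 3 was described in 2 multiple myeloma (MM) cell lines, MM.1S and RPMI8226, from reference lists of Omni-ATAC peaks. Omni-ATAC cuts accessible DNA in nuclei with a transposase, and a peak is an interval where cuts are concentrated. Every row of either list on chromosome 3 was taken. MM.1S contributed 4802 of its 72802 peaks and RPMI8226 6329 of its 79969, or 11131 of 152771 in all. The MM.1S list pooled 9 libraries (3 of cells in monoculture, 3 from an upper transwell, 3 from the lower chamber below it), and the RPMI8226 list pooled 5 (1, 2 and 2 of the same conditions). In coculture the lower chamber also held HS5, a human bone marrow stromal line, so upper cells met soluble factors and lower cells met contact as well. MM cells were sorted from the coculture, and each line and the stroma are single established lines, so that neither list samples more than 1 tumour. Each peak carries a whole number, read here as support, the number of libraries in which it was called. It ran from 3 to 9 in MM.1S and from 3 to 5 in RPMI8226. Support is summed over culture conditions, so no value below compares them. A peak called only in lower-chamber cells could enter the MM.1S list, with 3 such libraries, but not the RPMI8226 list, with 2 such libraries and a minimum of 3. The lists hold no read counts, so depth is unknown from them; the study's supplement states read totals for each library, which differ between libraries and were not used here.

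The chromosome was chosen because, of chromosomes 1 to 22 and X, it had the lowest ratio of MM.1S to RPMI8226 list share. That value and the counts built from it (bins, gene domains, promoters open in 1 line) are therefore descriptions without a test. Each line has 1 list, so no p-value was computed. Intervals are 95% intervals of counting, and since peaks are not replicates they cover counting error only.

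A promoter is the stretch around a gene's start where transcription is initiated, and many promoters lie in CpG islands, stretches of DNA dense in the dinucleotide CG that are open in most cell types. Distal open regions include enhancers, which bind transcription factors and differ far more between cell types, and sites of CTCF, which anchors chromatin loops and is bound much alike across tissues. AP-1, the dimer of JUN and FOS family proteins, is a stress- and growth-regulated factor that binds enhancers of many cells, myeloma cells included. The short arm of chromosome 3 holds tumour suppressors such as VHL and BAP1 and a cluster of chemokine receptor genes, and the long arm holds growth genes such as PIK3CA, MECOM and TBL1XR1 and the B cell repressor BCL6.

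The sequences below show what the classes of region look like in the DNA. They are 200 bp from the centre of single peaks, on the plus strand of hg38, in lower case with any searched motif in capitals. The first is an RPMI8226-only distal peak of the very different 5 Mb bin at 150 to 155 Mb. It lies between genes at chr3:151543755-151543954, 82.8 kb from IGSF10, and holds an AP-1 match. The next, chosen after values were seen, is an MM.1S-only distal peak of the CD200 domain (chr3:112391256-112391455) with an E-box, CAGCTG. The last pair were open in every library of both lines and hold a CTCF match, at chr3:54853940-54854139 in an intron of CACNA2D3 and at chr3:128617780-128617979, 32.9 kb from RPN1.
RPMI8226-only peak, bin at 150 to 155 Mb: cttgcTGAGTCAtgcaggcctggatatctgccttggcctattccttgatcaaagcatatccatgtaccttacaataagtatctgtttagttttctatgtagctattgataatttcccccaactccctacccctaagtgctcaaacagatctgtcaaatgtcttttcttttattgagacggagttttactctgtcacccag
MM.1S-only peak, CD200 domain: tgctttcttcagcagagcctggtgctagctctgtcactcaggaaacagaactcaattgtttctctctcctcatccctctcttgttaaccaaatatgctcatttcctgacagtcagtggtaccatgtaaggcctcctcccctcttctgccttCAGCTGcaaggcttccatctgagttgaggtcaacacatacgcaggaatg
Shared peak, short arm: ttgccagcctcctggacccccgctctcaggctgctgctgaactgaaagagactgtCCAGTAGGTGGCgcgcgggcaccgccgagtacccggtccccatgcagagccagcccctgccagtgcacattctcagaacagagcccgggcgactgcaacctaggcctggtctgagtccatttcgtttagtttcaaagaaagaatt
Shared peak, long arm: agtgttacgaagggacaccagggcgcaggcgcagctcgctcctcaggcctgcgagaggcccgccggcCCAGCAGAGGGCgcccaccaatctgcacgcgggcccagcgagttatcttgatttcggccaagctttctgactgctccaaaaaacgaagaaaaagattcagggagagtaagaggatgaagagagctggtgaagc

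Genes with a promoter peak in 1 line differed in the CG content before their canonical start. Of these, 4 are shown, chosen after their values were seen. Each is the 250 bp before that start on the minus strand of hg38, with each CG in capitals. EOMES (chr3:27722324-27722573, 19 CG) and EIF5A2 (chr3:170908638-170908887, 20 CG) had promoter peaks in MM.1S only. TM4SF1 (chr3:149377650-149377899, 4 CG) and CLRN1 (chr3:150972728-150972977, 6 CG) had them in RPMI8226 only.
EOMES, open in MM.1S: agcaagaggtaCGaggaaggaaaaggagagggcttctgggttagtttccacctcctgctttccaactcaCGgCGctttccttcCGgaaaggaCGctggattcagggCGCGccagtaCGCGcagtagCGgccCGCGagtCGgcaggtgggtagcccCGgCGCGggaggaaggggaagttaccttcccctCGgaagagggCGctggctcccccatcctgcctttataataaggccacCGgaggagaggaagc
EIF5A2, open in MM.1S: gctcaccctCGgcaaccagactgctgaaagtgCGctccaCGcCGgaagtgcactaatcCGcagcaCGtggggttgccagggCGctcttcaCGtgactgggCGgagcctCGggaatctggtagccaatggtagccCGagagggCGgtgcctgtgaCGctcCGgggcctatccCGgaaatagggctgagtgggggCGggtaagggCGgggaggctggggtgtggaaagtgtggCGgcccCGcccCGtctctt
TM4SF1, open in RPMI8226: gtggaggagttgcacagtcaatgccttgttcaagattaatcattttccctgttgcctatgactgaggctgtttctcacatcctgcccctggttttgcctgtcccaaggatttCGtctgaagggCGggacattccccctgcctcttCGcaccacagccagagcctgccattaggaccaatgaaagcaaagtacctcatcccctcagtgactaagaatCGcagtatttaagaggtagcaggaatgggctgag
CLRN1, open in RPMI8226: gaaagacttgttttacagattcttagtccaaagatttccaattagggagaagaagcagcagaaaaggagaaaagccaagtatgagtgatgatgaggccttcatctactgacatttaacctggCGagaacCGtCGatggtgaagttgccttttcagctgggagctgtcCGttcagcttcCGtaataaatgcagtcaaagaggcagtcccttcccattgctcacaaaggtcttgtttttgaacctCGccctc

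RPMI8226 had 1527 more chromosome 3 peaks than MM.1S, 31.9 against 24.2 per Mb, and most of the excess was distal and private to RPMI8226. MM.1S peaks were wider, with a median of 522 bp against 344 bp. Together they covered 2957 kb of the chromosome, against 2640 kb in RPMI8226, and distal peaks covered 1632 and 1648 kb. The excess was thus one of peak number and not of covered sequence. The log2 ratio of list shares, MM.1S over RPMI8226, was -0.26 (95% interval -0.32 to -0.21), and the next lowest chromosomes were X (-0.18), 18 (-0.17) and 5 (-0.17). A peak with 1 bp or more in common with the other line's list was called shared, and any other peak line-only. Promoter peaks reached within 2500 bp of an annotated transcription start, and the rest were distal. Shared peaks numbered 3341 in MM.1S and 3486 in RPMI8226, whereas line-only peaks numbered 1461 and 2843. Distal line-only peaks numbered 1054 and 2353, a 2.23-fold excess in RPMI8226 against 1.27-fold over the other chromosomes, and made up 85.1% of the difference. Promoter line-only peaks numbered 407 and 490.

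A shared peak overlaps one of the other list, so shared counts are near equal by construction. Scaled to the distal peaks of each list, the distal peaks of the chromosome gave a log2 ratio of -0.31 (-0.37 to -0.25), and scaled to the promoter peaks of each list, its promoter peaks gave -0.13 (-0.22 to -0.03). Scaled instead to all peaks of each list, distal peaks gave -0.38 (-0.44 to -0.32) and promoter peaks -0.0064 (-0.10 to 0.09), so the value below 0 at promoters depended on the denominator. By annotation, introns held 1926 MM.1S and 2731 RPMI8226 peaks and accounted for 52.7% of the difference. Sequence between genes held 1094 and 1629 peaks and accounted for 35.0%. Exons outside promoters held 137 and 154 peaks, so most of the difference lay outside exons and promoters.

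**Figure D1:**
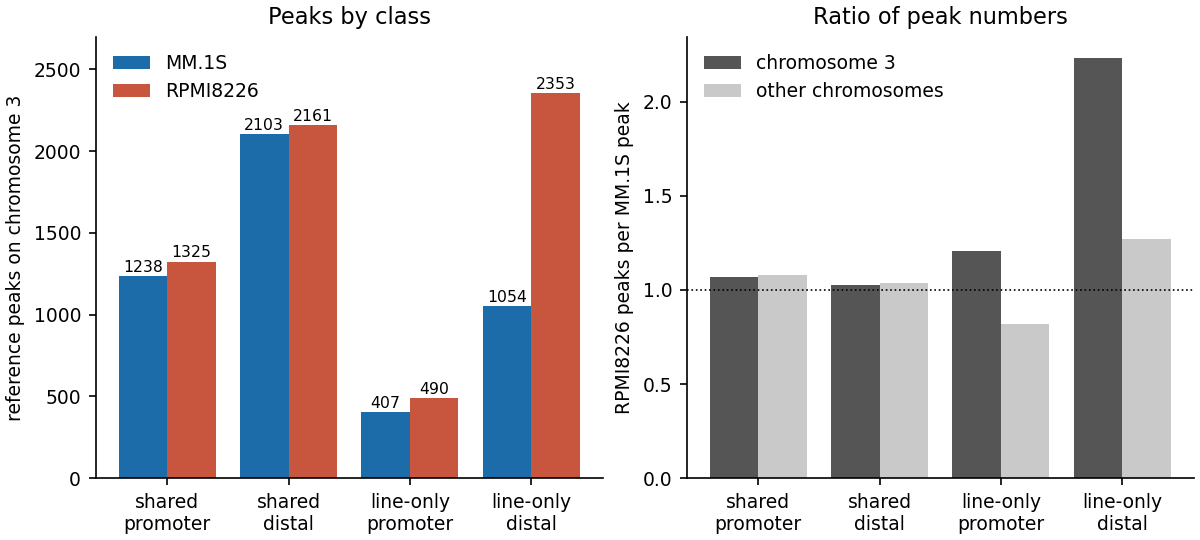
Left, number of chromosome 3 peaks in each list (vertical axis) for shared and line-only peaks at promoters and distal sites; right, RPMI8226 peaks per MM.1S peak in the same classes, for chromosome 3 and the other chromosomes. On the left the bars for RPMI8226-only distal peaks (2353) stand far above those for MM.1S-only distal peaks (1054), while shared classes are near level, as the definition of sharing makes them.

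Sharing moved with the excess. On chromosome 3, 69.6% of MM.1S peaks were shared, against 64.3% on the other chromosomes (difference 5.29 percentage points, 3.93 to 6.63). In RPMI8226, 55.1% were shared, against 62.7% elsewhere (difference -7.59, -8.86 to -6.31). These shares are not independent of the choice of the chromosome, since peaks added to 1 list alone lower its shared share. Among distal peaks, 66.6% of MM.1S and 47.9% of RPMI8226 peaks were shared.

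Support differed little from the other chromosomes in MM.1S and slightly in RPMI8226. In MM.1S 51.5% of chromosome 3 peaks were called in all 9 libraries, against 52.0% elsewhere (difference -0.49 points, -1.96 to 0.97). In RPMI8226 62.2% were called in all 5 libraries, against 64.3% (difference -2.10, -3.35 to -0.86). Chromosome 3 held fewer promoter peaks than other chromosomes, 28.7% against 36.7% in RPMI8226 and 34.3% against 39.5% in MM.1S. Of the RPMI8226-only distal peaks, which made most of the excess, 42.1% were called in every library against 43.5% elsewhere (difference -1.38, -3.47 to 0.74), within counting error. Shared distal RPMI8226 peaks were called in every library more often than elsewhere, at 75.5% against 71.2% (difference 4.30, 2.36 to 6.16).

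Peaks called in every library were shared most often. In MM.1S the shared percentage was 44.5, 42.7, 49.8, 60.3, 58.9, 65.6 and 83.6 from 3 to 9 libraries, and 31.8, 36.5, 41.2, 45.3, 49.6, 60.6 and 81.2 elsewhere, so on chromosome 3 the rise was broken at 4 and 7 libraries. In RPMI8226 the share was 26.6%, 34.4% and 69.7% at 3, 4 and 5 libraries, against 37.6%, 43.8% and 74.6%. At each support value chromosome 3 lay above the rest of the MM.1S list and below the rest of the RPMI8226 list.

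**Figure D2:**
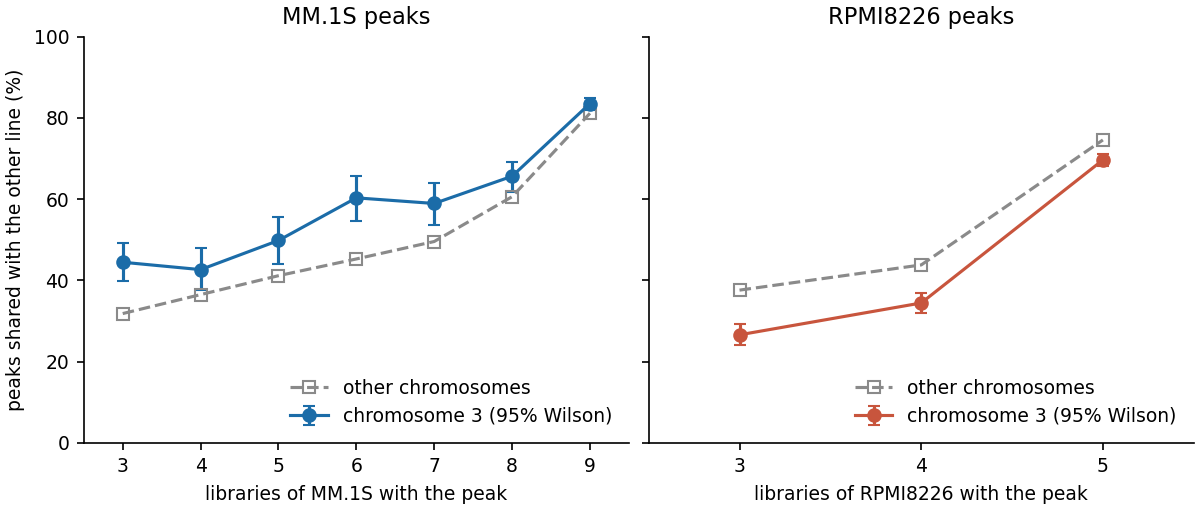
Percent of chromosome 3 peaks shared with the other line (vertical axis) by the number of libraries in which the peak was called (horizontal axis), for each list, beside the same on the other chromosomes; bars are 95% Wilson intervals. Sharing goes from 44.5% at 3 to 83.6% at 9 libraries in MM.1S and from 26.6% at 3 to 69.7% at 5 in RPMI8226.

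Of the shared MM.1S peaks 140 overlapped several RPMI8226 peaks each, and 0 RPMI8226 peaks overlapped several MM.1S peaks. With those left out, shared peaks could be joined into 3201 overlapping pairs. MM.1S had the wider member in 79.6% of them (78.2 to 81.0), with median widths of 552 bp in MM.1S and 404 bp in RPMI8226. In 1734 pairs, or 54.2%, the peak was called in every library of both lines. The widest peaks of both lists were at promoters. In MM.1S they covered the starts of TSC22D2 (3080 bp), which encodes a leucine zipper protein, and of DIPK2A (2630 bp). DIPK2A was also the widest in RPMI8226 (2571 bp), followed by the divergent start of CLCN2, a chloride channel gene, and POLR2H, an RNA polymerase subunit gene (2440 bp).

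Both arms took part. The short arm held 1983 MM.1S and 2550 RPMI8226 peaks (log2 ratio of list shares -0.23, -0.31 to -0.14), and the long arm 2807 and 3764 (-0.29, -0.36 to -0.22). The long arm minus the short arm was -0.06 (-0.17 to 0.05), so the arms did not differ beyond counting error. Scaled within their class, distal peaks gave -0.28 on the short and -0.33 on the long arm, and promoter peaks -0.10 (-0.24 to 0.05) and -0.15 (-0.28 to -0.02). Scaled to all peaks, promoter peaks gave 0.02 (-0.12 to 0.17) and -0.03 (-0.16 to 0.10), and distal peaks -0.35 and -0.40. On each arm and on either scale the promoter value was nearer 0 than the distal value.

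Along the chromosome, RPMI8226 had more peaks in 39 of 40 bins of 5 Mb, and after scaling to list totals 34 bins were lower in MM.1S and 6 higher. The median log2 ratio of the bins was -0.20, and the values ran from -1.07 to 0.17. A bin was called when list shares differed at least 1.5-fold, the counting interval left out 0 and the lists together held 20 peaks. By that rule 5 bins were higher in RPMI8226 and 0 in MM.1S, beside 4.85% of all 619 bins of chromosomes 1 to 22 and X called higher in RPMI8226 and 4.85% higher in MM.1S. The chromosome was chosen on the same contrast, so nothing is read from that background.

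The 5 called bins lay on both arms. The bin at 80 to 85 Mb, which is poor in genes and holds GBE1, the glycogen branching enzyme gene, had 20 MM.1S and 46 RPMI8226 peaks (log2 -1.07). The bin at 150 to 155 Mb, with the P2Y receptor gene cluster, had 112 and 236 (-0.94). The bin at 55 to 60 Mb, with WNT5A and ERC2, had 97 and 183 (-0.78). These 3 had the widest gaps of the chromosome. The bin at 175 to 180 Mb, with TBL1XR1 and PIK3CA, had 133 and 243 peaks (-0.73), and that at 105 to 110 Mb, with CBLB and CD47, had 76 and 131 (-0.65). Just outside the rule were the bins at 170 to 175 Mb, with 136 and 224 peaks (-0.58), and at 155 to 160 Mb, with 166 and 267 (-0.55). At the other end, the bin at 85 to 90 Mb had 41 and 40 peaks (0.17), the one bin in which MM.1S had more.

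By raw count, the ratio of RPMI8226 to MM.1S peaks in each called bin was larger for distal than for promoter peaks, from 1.87 to 2.53 against 1 to 2. Scaled within class this did not hold in every called bin. The promoter log2 ratio was further from 0 than the distal one at 150 to 155 Mb (-0.98 against -0.89). The same was seen at 175 to 180 Mb (-0.73 against -0.69), and in the other called bins the distal ratio was further from 0. At 150 to 155 Mb, where promoter peaks differed most, distal peaks numbered 82 in MM.1S and 176 in RPMI8226 and promoter peaks 30 and 60. At 55 to 60 Mb distal peaks numbered 59 and 130 and promoter peaks 38 and 53. At 80 to 85 Mb promoter peaks were equal at 3, and distal peaks numbered 17 and 43. Within the called bins 76.3% of MM.1S peaks but 42.4% of RPMI8226 peaks were shared, against 68.9% and 57.0% in the other bins. Of the RPMI8226-only distal peaks, 41.9% inside the called bins and 42.1% outside them were called in every library.

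**Figure D3:**
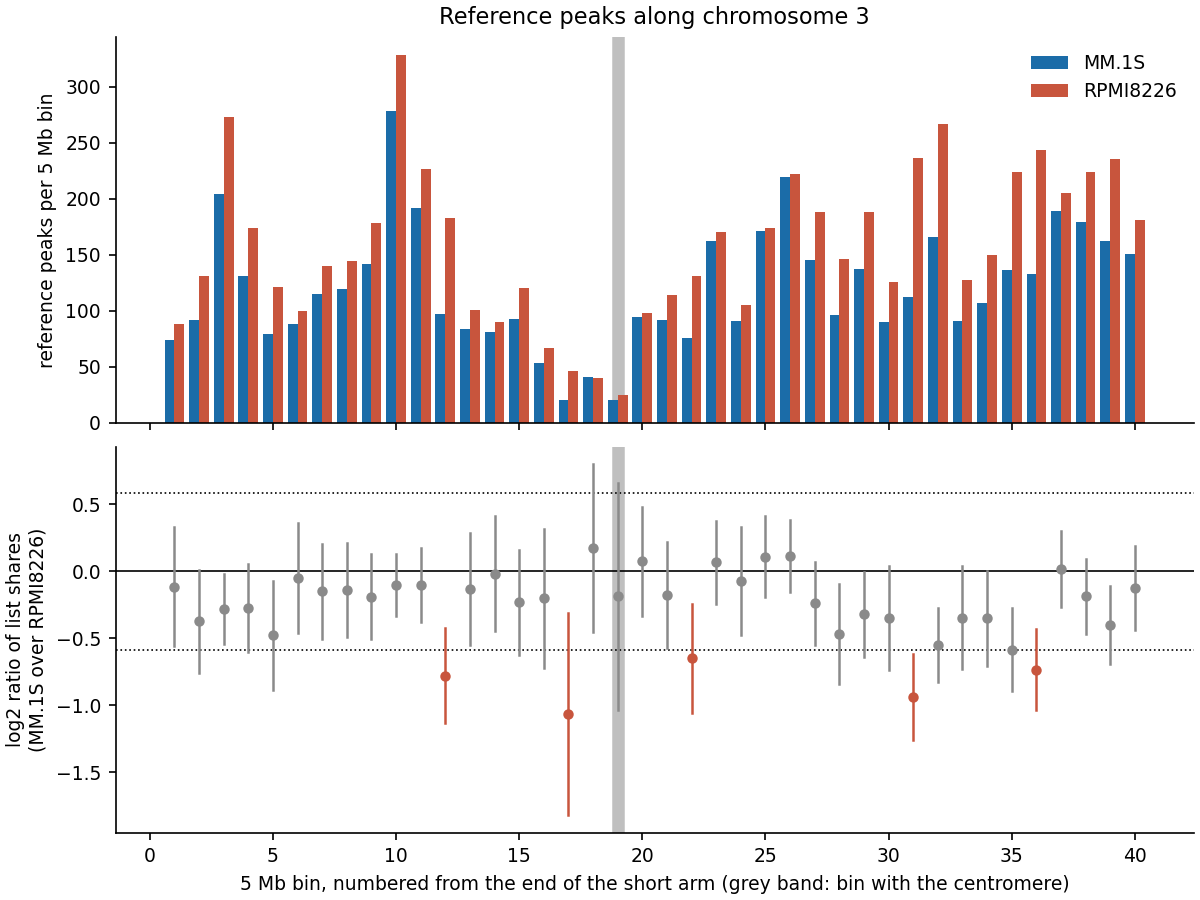
Peaks of each list in 40 bins of 5 Mb along chromosome 3 (bin number in order from the end of the short arm) (bars, upper panel) and the log2 ratio of list shares with 95% counting intervals (points, lower panel; dotted lines mark 1.5-fold and the grey band the bin with the centromere). The 5 called bins lie between -1.07 and -0.65, and no bin was called higher in MM.1S.

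Finer bins of 1 Mb placed the gaps. By difference in peak number the largest was at 177 to 178 Mb, with 41 MM.1S and 89 RPMI8226 peaks, beside TBL1XR1. At 155 to 156 Mb there were 24 and 64 peaks, at 151 to 152 Mb 21 and 58, at 176 to 177 Mb 10 and 45, at 190 to 191 Mb 31 and 65, and at 55 to 56 Mb 8 and 40. Each of these stretches held more than 2 RPMI8226 peaks for every MM.1S peak. By log2 ratio of list shares the gap was wider at 106 to 107 Mb, with 5 and 30 peaks (-2.45), and at 55 to 56 Mb (-2.19) than at 177 to 178 Mb (-0.98).

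Long runs of consecutive RPMI8226-only peaks lay in or beside the called bins. The longest run of 17 peaks spanned chr3:54862598-55416551 over CACNA2D3, a calcium channel subunit gene, and LRTM1, and MM.1S had 0 peaks there. A run of 13 at chr3:81980733-82644224, again with 0 MM.1S peaks, overlapped no named coding gene. One of 12 lay over ARHGEF3, SPATA12 and IL17RD (chr3:56952888-57099169). A pair of runs of 11, at chr3:106534199-107125226 and chr3:175950874-176158882, likewise overlapped no named coding gene. MM.1S-only runs were shorter: 9 peaks at chr3:144221843-144754936, 8 within ZBTB38, a methyl-CpG-binding zinc finger gene (chr3:141400450-141422463), and 7 each in CNTN4, BBX and EPHB3.

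Peaks were next counted in gene domains, the stretch from 5 kb upstream and 1 kb downstream of a coding gene's start out to the neighbouring genes, up to 1 Mb. Domains overlap, so neighbouring genes share peaks. Of 1081 coding genes, 59 had at least 2-fold more RPMI8226 peaks per list total with 10 peaks or more in all, beside 3.12% of all domains of chromosomes 1 to 22 and X, and 11 had more MM.1S peaks, beside 3.00%. On chromosome 3 these were 5.46% and 1.02% of the genes, which again follows the contrast the chromosome was chosen on. The short arm held 20 and 4 of them and the long arm 39 and 7, and 21 of the 59 genes started in the called bins.

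The largest RPMI8226 domain was that of TBL1XR1, a subunit of the NCoR and SMRT corepressor complexes, with 55 MM.1S and 129 RPMI8226 peaks. Of the RPMI8226 peaks 71 were distal and absent from MM.1S, 34 of these were called in all 5 libraries, and 9 held AP-1. The domain of WNT5A, a secreted ligand of non-canonical Wnt signalling, had 15 and 61 peaks, 3.70-fold more per list total. Of the 61, 40 were RPMI8226-only distal peaks, 15 of them in every library and 9 with AP-1. Both genes had promoter peaks in every library of both lines. The lists hold no peak heights, so whether the lines differed at these starts is unknown.

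CBLB, an E3 ubiquitin ligase that restrains lymphocyte receptor signalling, had 14 MM.1S and 42 RPMI8226 peaks, and 10 of its 29 RPMI8226-only distal peaks held AP-1. RAP2B, a small GTPase of the Ras family, had 27 and 60. STRIT1, which encodes a micropeptide of the muscle calcium pump, had 14 and 46 peaks, and 20 of its 30 RPMI8226-only distal peaks were called in every library. In each of these domains at most 2 MM.1S-only distal peaks were present. ERC2, a presynaptic scaffold gene that overlaps the WNT5A domain, had 14 and 45 peaks. TRIM42, a tripartite motif gene, had 18 and 45, and the coding gene ENSG00000275163, whose domain overlaps that of TBL1XR1, had 24 and 56. These 8 genes had the largest differences per list total in favour of RPMI8226.

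Further RPMI8226 domains formed neighbourhoods. Around the P2Y receptor cluster, the domains of MED12L, GPR171, P2RY14, IGSF10, AADACL2 and SUCNR1 were called, with 3 to 9 MM.1S and 10 to 29 RPMI8226 peaks each. SUCNR1, the succinate receptor, had 9 and 29, and AADACL2 had 3 and 15. Around CLDN1, a tight junction gene with 8 and 24 peaks, the neighbours P3H2, a collagen prolyl hydroxylase gene (16 and 41), and CLDN16 (4 and 12) were called as well. PIK3CA, the catalytic subunit of PI3 kinase alpha, had 3 and 11 peaks, BCL6 8 and 18, and MME, which encodes the surface peptidase CD10, 15 and 37. In 20 of the 59 domains no MM.1S-only peak was present, and in 5 of the 11 domains called in MM.1S no RPMI8226-only peak was present.

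The 11 MM.1S domains held few peaks, 7 to 14 in MM.1S and 3 to 6 in RPMI8226. CD200, an immunoglobulin-family surface protein that restrains myeloid cells, had 14 MM.1S and 5 RPMI8226 peaks. The 5 were each shared with MM.1S, and 8 MM.1S peaks were MM.1S-only and distal, 2 of them called in all 9 libraries. Its neighbour BTLA, an inhibitory receptor of lymphocytes, shares most of these peaks and had 14 and 6. VGLL3, a cofactor of TEAD factors, had 10 and 4 peaks, and FEZF2, a neural zinc finger gene, 9 and 3. CCR4, a chemokine receptor, had 11 and 6, ASTE1 11 and 6, DNAJB8, a chaperone gene, 10 and 5, and GOLGB1, the Golgi protein giantin, 9 and 4. HCLS1, which encodes a cortactin-like protein of blood cells, had 8 and 3 peaks, and RAB43 and SEMA3F had 7 and 3 each.

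**Figure D4:**
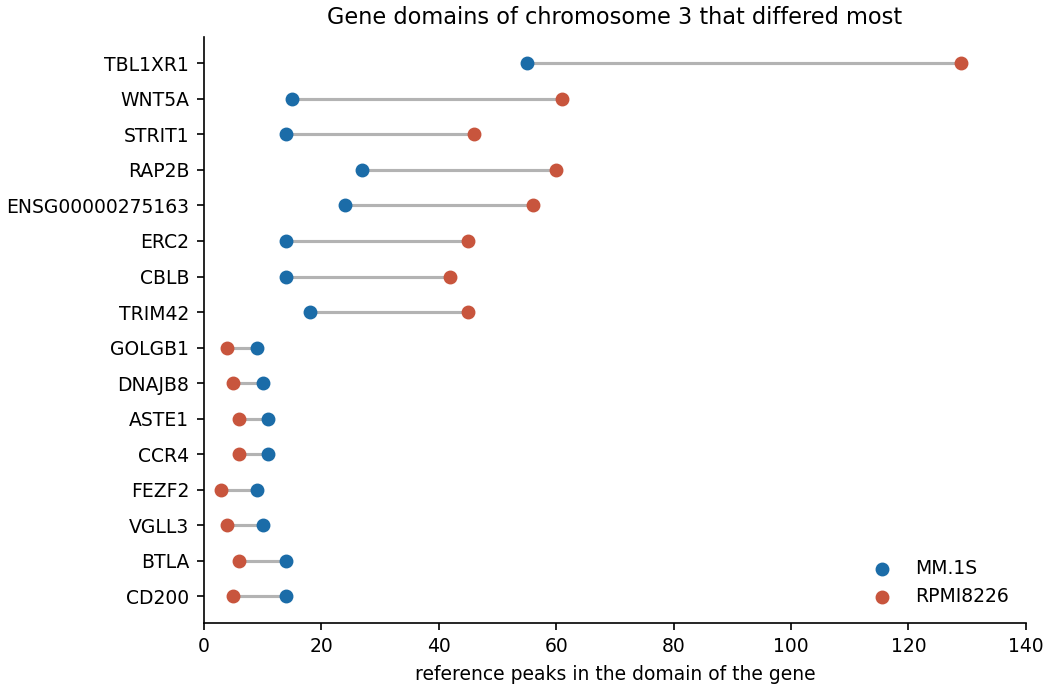
Peaks in the domains of the named coding genes of chromosome 3 (axis, peaks per domain), for MM.1S and RPMI8226. TBL1XR1 (55 and 129) and WNT5A (15 and 61) lead on the RPMI8226 side, and CD200 (14 and 5) on the MM.1S side.

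Genes were also classed by the line with a promoter peak. Of the 1081 coding genes 803 (74.3%) had a promoter peak in both lines, 82 in MM.1S only and 34 in RPMI8226 only, and 162 in neither. The 82 were 7.59% of the genes, beside 8.21% of coding genes over chromosomes 1 to 22 and X, and the 34 were 3.15%, beside 3.17%. Both shares were near the background and are no result about the chromosome. Genes with a promoter peak in neither line were fewer on chromosome 3, 15.0% (13.0 to 17.2) against 20.1% (19.5 to 20.7).

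Of the 1081 genes, 51 had an MM.1S-only promoter peak called in all 9 libraries and 17 an RPMI8226-only one called in all 5. On the other chromosomes these classes held 928 and 333 of 18889 coding genes, near the same shares, so the counts are no result about the chromosome. The 51 MM.1S peaks were wide, GC-rich and close to the start site, with a median of 924 bp, 70.5% GC and 71 bp from the start, and 38 of them had at least 60% GC. The 16 RPMI8226 peaks had medians of 450 bp, 53% GC and 280 bp, and 2 had at least 60% GC. Of the MM.1S peaks 41 lay within 500 bp of the start, and of the RPMI8226 peaks 10. The difference in width is not particular to these genes. Over all promoter peaks of the chromosome the median width was 728 bp in MM.1S and 438 bp in RPMI8226, and over line-only ones 510 and 300 bp.

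Among the genes with MM.1S-only promoter peaks in all 9 libraries were EOMES, a T-box factor of lymphocytes and early embryos (peak of 1159 bp, 70.5% GC), ZIC1, a zinc finger factor of the neural plate (554 bp), and THRB, a thyroid hormone receptor (1039 bp, 78% GC). CADM2, a synaptic adhesion gene, had a peak of 1184 bp whose nearest RPMI8226 peak lay 121 kb away. For PPP2R3A, a phosphatase 2A regulatory subunit gene, that distance was 105 kb, and for MYRIP, a melanosome transport gene, 67.2 kb. These starts stood in stretches with no RPMI8226 peak. Also here were BSN, a presynaptic scaffold gene (80% GC), DOCK3, NLGN1, CLSTN2, P2RY1, a purine receptor, PLOD2, a collagen lysyl hydroxylase, PFN2, an actin-binding profilin, and EIF5A2, a translation factor.

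A set of neighbours on the short arm, ZNF197 and ZNF501, both zinc finger genes, and TMEM42, had MM.1S-only promoter peaks in all 9 libraries at starts with 68% to 72.5% GC. The nearest RPMI8226 peaks lay 21.4 to 31.5 kb away. These genes lie within a stretch of less than 1 Mb.

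The genes with RPMI8226-only promoter peaks in all 5 libraries had smaller peaks, as promoter peaks of that list were in general. TM4SF1, a tetraspanin-like gene of epithelium and endothelium, had a peak of 620 bp with 47.5% GC, and CLRN1, a gene of hair cells and photoreceptors, one of 494 bp with 48% GC. P2RY13, a receptor gene of the P2Y cluster, had a peak of 274 bp. WNT7A, a Wnt ligand, had a peak of 401 bp and ERC2 had 3 peaks at alternative starts, 2 of them in all 5 libraries. CCR9, a receptor of gut-homing lymphocytes, had a peak of 210 bp centred 2600 bp from its nearest annotated start, which is not its canonical one. That peak lay 0.266 kb from an MM.1S peak and stood at the edge of the promoter definition. GPX1, the glutathione peroxidase gene, was an exception among them, with a peak of 696 bp and 70% GC, 12 bp from its start. A peak of 486 bp (chr3:48565866-48566351) met the promoter definition for both COL7A1, a collagen of the skin anchoring fibril, and UCN2, a stress peptide gene. It was centred 770 bp from an alternative start of COL7A1, whose canonical start is far off at 48595329. From the UCN2 start it was 2328 bp away, near the edge of the definition.

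The CG content of the DNA before the start sites, which the choice of the genes did not use, differed between these classes. The count was made before the canonical start, whereas the classes were set by a peak near any annotated start. For some genes the counted stretch is therefore not beside the peak, as at WNT7A and FAM3D in RPMI8226 and ROPN1 and ZIC1 in MM.1S. In the 250 bp before the canonical start, genes open in both lines had a median of 20 CG and genes open in MM.1S only 16.5. Genes open in RPMI8226 only had a median of 4, and genes open in neither 4. At least 10 CG were present in 82.6%, 70.7% (60.1 to 79.5), 26.5% (14.6 to 43.1) and 32.7% of them. On the other chromosomes the shares were 83.9%, 65.5% (63.1 to 67.9), 41.2% (37.3 to 45.1) and 30.0%. In both sets the MM.1S-only class lay between the class open in both lines and the RPMI8226-only class. The RPMI8226-only class lay above the genes open in neither on the other chromosomes, but not on chromosome 3, where its interval is wide. This contrast was looked for after the gene names were seen.

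**Figure D5:**
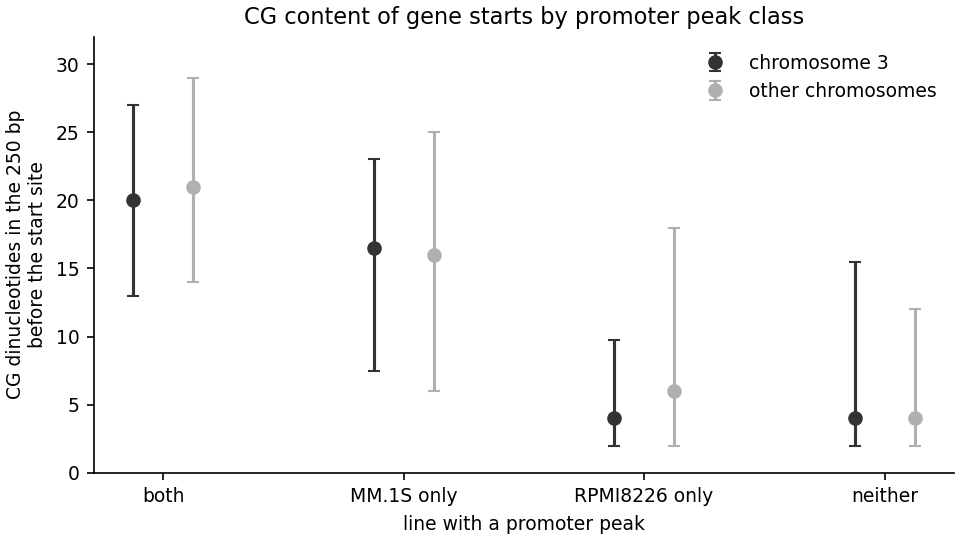
Number of CG dinucleotides in the 250 bp before the canonical start of coding genes (vertical axis), by the line with a promoter peak at any start (horizontal axis), for chromosome 3 and the other chromosomes. Points are medians and bars run from the lower to the upper quartile of the genes. On chromosome 3 the MM.1S-only median is 16.5 and the RPMI8226-only median 4.

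Gene groups of the chromosome were then counted. All 19 secretory pathway genes, which myeloma cells need to export antibody, had a promoter peak in every library of both lines. They included SEC61A1, the pore of the translocon (8 MM.1S and 6 RPMI8226 peaks in its domain), RPN1, an oligosaccharyltransferase subunit (9 and 8), MANF, a chaperone of the endoplasmic reticulum (11 and 10), SSR3 (29 and 31) and STT3B, a catalytic subunit of the oligosaccharyltransferase (25 and 46). Relative to list totals, the scale of such counts in the groups below too, RPMI8226 had more peaks in 11 of the 19 domains and MM.1S in 8, and 0 domains were called. Over all coding genes of the chromosome RPMI8226 had more in 574, MM.1S in 488, and 719 genes had a promoter peak in every library of both lines.

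Of 15 B cell and plasma cell genes 13 had promoter peaks in both lines, and CD200 and BTLA in neither. The domains of CBLB and BCL6 were called in RPMI8226 and those of CD200 and BTLA in MM.1S. CRBN, the target of thalidomide analogues, had 9 and 8 peaks and an open promoter in every library. CD86, a costimulatory ligand, had 11 and 10 peaks, KLHL6, an adaptor of germinal centre B cells, 21 and 21, and FOXP1, a B cell transcription factor, 30 and 33. LPP, the neighbour of BCL6, had 27 and 49 peaks, TNFSF10, the death ligand TRAIL, 14 and 28, and ST6GAL1, a sialyltransferase, 22 and 13, none past the domain rule. The group was thus split, with the median domain at 14 and 13 peaks.

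Short arm tumour suppressor genes were alike in the lists. Of 22 genes 20 were open in every library of both lines, ZMYND10 had a promoter peak in MM.1S only (8 libraries), and HYAL1 in neither. VHL, a ubiquitin ligase subunit of oxygen sensing, had 2 and 1 peaks, BAP1, a deubiquitinase, 2 and 3, SETD2, a histone H3 methyltransferase, 11 and 14, and FHIT, at a fragile site, 15 and 14. TGFBR2, a receptor of TGF-beta, had 20 and 25, and RARB, a retinoic acid receptor, 14 and 25. SEMA3F, a secreted semaphorin, was the one called domain, with 7 and 3.

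Long arm growth genes had open promoters in both lines with few exceptions, and most of their domains held more RPMI8226 peaks. All but EIF5A2 of the 16 had promoter peaks in both lines. RPMI8226 had more domain peaks for 13 of 16, beside 574 of 1081 coding genes of the chromosome. The domains of TBL1XR1 and PIK3CA were called. MECOM, a zinc finger oncogene, had 29 and 42 peaks, TP63, a p53 relative of epithelium, 21 and 44, ETV5, an ETS factor, 20 and 30, SKIL, a TGF-beta antagonist, 7 and 14, and PRKCI, an atypical protein kinase C, 8 and 15. TFRC, the transferrin receptor, had 19 and 26, and GATA2, a blood stem cell factor, 9 and 6. The median domain of the group held 11 MM.1S and 15.5 RPMI8226 peaks, beside 5 and 7 over all coding genes of the chromosome, a like ratio. Domain size was not matched, so the 13 of 16 is not read as a trait of the group.

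The 13 chemokine receptor genes, 12 on the short arm and ACKR4 on the long arm, were mixed. Promoters of 7 genes, CX3CR1, CXCR6 and CCR1 among them, were open in both lines, those of XCR1 (9 libraries) and ACKR4 (3 libraries) in MM.1S only, those of CCR9 (5 libraries) and CCR2 (4 libraries) in RPMI8226 only, and those of CCR4 and CCR8 in neither. CCR1, a receptor of inflammatory chemokines, had 15 and 27 domain peaks. The genes from CCR9 to CCRL2 lie close together in a cluster, and their domains share peaks.

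Of 15 innate and cytokine signalling genes 14 had promoter peaks in both lines, among them MYD88, the adaptor of Toll-like receptors (5 and 4 domain peaks), and NFKBIZ, a nuclear regulator of NF-kappaB (18 and 38). PPARG, a lipid-sensing nuclear receptor, had one in RPMI8226 only (4 libraries). The domain of IL17RB, a subunit of the interleukin-25 receptor, was called in RPMI8226 with 7 and 18 peaks. RPMI8226 had more domain peaks for 12 of the 15, beside 574 of 1081 coding genes of the chromosome. The median domain of the group held 8 and 12 peaks, beside 5 and 7 over all coding genes, and domain size was not matched.

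Neural adhesion genes were split at their promoters. Of 14 genes 5 had promoter peaks in both lines, 5 in MM.1S only (CADM2, EPHA3, CLSTN2, SLITRK3 and NLGN1), 0 in RPMI8226 only and 4 in neither, beside 82 and 34 of 1081 coding genes open in MM.1S only and RPMI8226 only. In their domains RPMI8226 had more peaks for 12 of 14, beside 574 of 1081. The median domain of the group held 15.5 and 23.5 peaks, beside 5 and 7 over all coding genes. Domain size was not matched, so the 12 of 14 is not read as a trait of the group. Examples were CLSTN2 with 7 and 17 peaks, NLGN1, a postsynaptic adhesion gene, with 25 and 39, and GRM7, a glutamate receptor gene, with 14 and 30. CLSTN2 was the one called, in RPMI8226, so that its start was open in MM.1S while its surroundings held more RPMI8226 peaks.

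Stromal marker genes were counted because the lower chamber held HS5 cells. Of 15 genes 6 had promoter peaks in both lines, 3 in MM.1S only (ADAMTS9, FSTL1 and PLOD2), 3 in RPMI8226 only (FBLN2, COL7A1 and TM4SF1), and 3 in neither (TIMP4, COL8A1 and CLDN11). Over all 1081 coding genes of the chromosome these classes held 803, 82, 34 and 162. The domains of FBLN2, an extracellular matrix gene (11 and 26), WNT5A, TM4SF1 (5 and 12) and MME were called in RPMI8226 and 0 in MM.1S. Over all coding genes of the chromosome 5.46% of domains were called in RPMI8226 and 1.02% in MM.1S. An RPMI8226 peak in all 5 libraries was called in the monoculture library too. This held for promoter peaks of COL7A1 (at an alternative start), TM4SF1, WNT5A and MME. It also held for 15 of the 40 RPMI8226-only distal peaks of the WNT5A domain. Promoter peaks of FBLN2 were called in at most 4 libraries, so they may be absent from the monoculture library. In MM.1S, promoter peaks of FSTL1 and PLOD2 were called in all 9 libraries and one of ADAMTS9 in 8, so monoculture libraries were among them. The study reports a minimal level of HS5 cells among the MM cells sorted from the lower chamber. The part of stromal DNA in the peaks of lower support was not tested.

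The middle 200 bp of each distal peak was searched on both strands for 11 motifs. They were AP-1 (TGACTCA), CRE (TGACGTCA), the MAF element (TGCTGAC), PU.1 (GAGGAAGT), ETS (CCGGAAGT), RUNX (TGTGGTT), OCT (ATGCAAAT), STAT (TTCCNGGAA), ISRE, the E-box (CAGCTG) and CTCF, and those letters may overlap in a peak. PU.1, like AP-1, was more frequent in RPMI8226-only peaks (5.69%) than in shared RPMI8226 peaks (4.07%) or MM.1S-only peaks (1.80%). Among the 11 motifs AP-1 was the most frequent in RPMI8226-only peaks. It was present in 21.7% of them (20.1 to 23.4), in 13.5% of shared RPMI8226 peaks and in 4.84% (3.70 to 6.31) of MM.1S-only peaks, while all distal RPMI8226 peaks of the genome held it at 17.0% and the distal MM.1S peaks at 9.17%. On the other chromosomes RPMI8226-only peaks held it at 21.9% (difference -0.19 points, -1.90 to 1.61), so the added peaks of chromosome 3 carried AP-1 at the rate of RPMI8226-only peaks elsewhere. The share was 22.6% on the short and 21.1% on the long arm, and 21.4% in called bins and 21.7% in the others. By support it was 17.8%, 26.3% and 20.7% at 3, 4 and 5 libraries.

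CTCF matches went the other way. They were found in 5.51% of shared RPMI8226 and 4.61% of shared MM.1S peaks, in 2.37% of MM.1S-only peaks and in 0.595% (0.355 to 0.996) of RPMI8226-only peaks. RPMI8226-only peaks elsewhere held them at 1.02% (difference -0.42, -0.70 to -0.00366). MM.1S-only peaks of chromosome 3 held RUNX at 13.4% against 10.6% elsewhere (difference 2.80, 0.82 to 5.04) and ISRE, the element of interferon regulatory factors, at 11.1% against 9.05% (2.05, 0.24 to 4.13). Of 22 comparisons of line-only distal peaks with the other chromosomes, 2 intervals lay above 0 and 2 below, the latter being CTCF and CRE in RPMI8226-only peaks, where CRE was found in 0 of 2353 peaks (Wilson upper limit 0.163%) against 0.189% elsewhere. With 22 intervals and no adjustment, differences this close to 0 are weak. A match says that the letters are present, not that a factor was bound.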

How the data were processed

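Omni-ATAC was measured in 14 libraries of 2 human MM cell lines, grouped by line and culture condition from the sample labels. The authors aligned reads to hg38 with Bowtie2 and called peaks with MACS3 (versions not given in the sources used here), and a peak present in at least 3 libraries of a line entered its reference list, whatever the condition. In the deposited lists each of 4 columns is a chromosome, start, end or whole number. The number has no header and was read as the count of libraries with the peak, because it runs from the stated minimum up to 9 in MM.1S and 5 in RPMI8226. Per the labels and methods it was not normalized. No library has a value of its own in the lists, so depth is unknown from them and planned comparisons of conditions were not possible. Read totals that the study's supplement states for each library were not used here. The minimum of 3 of 9 libraries is more lenient than 3 of 5.

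Peaks were placed with GENCODE 44, using start sites of all transcripts for promoters and the canonical start of coding genes for domains and CG counts. Arms were split at the centromere, found in hg38 as 500 kb windows in which at least 33% of bases matched a neighbour at a repeat length of 171 bp. Each list was scaled by its total, and promoter and distal log2 ratios by the promoter or distal peaks of the list, with scaling by all its peaks added after the data were seen. Shares have Wilson intervals, differences of shares Newcombe intervals, and ratios normal intervals of the log ratio of counts, all at 95%. The code for bin calls was tested on simulated data. Python 3.11.15, numpy 2.4.6, pandas 2.3.3, scipy 1.17.1 and matplotlib 3.10.9 were used. The chromosome, the gene lists and the tests were chosen with earlier results of these data known. Named were members of 8 gene lists as examples, the 8 called domains with the largest difference in each direction, genes with a promoter peak in 1 line called in every library of that line, the called bins, the 4 longest runs of line-only peaks and the 2 widest peaks of each list; other called domains, the CG counts, and the domain and promoter sequences were added after values were seen. Alternatives were peaks called in every library, MM.1S peaks in at least 6 libraries, peaks of at least median width, an overlap of 50% of both peaks, a promoter window of 1000 bp, start sites of coding transcripts, other bins and folds, and a motif scan of the whole peak. Some members, and a few of the sequences the rule selects, are not reported here.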

Additional observations from a re-analysis of the deposited data

How the results depend on the processing

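No result recomputed here changed direction. Under the alternatives 42 values stayed within the counting interval, or within 1.5 times for a count, and 24 moved. Scaled by all peaks of each list, an alternative added after the data were seen, the promoter log2 ratio was -0.0064 and the distal one -0.38, against -0.13 and -0.31. With peaks called in every library alone, 75.2% of MM.1S and 49.1% of RPMI8226 peaks were shared, 7 domains were higher in MM.1S, and AP-1 was in 18.6% of RPMI8226-only distal peaks. With MM.1S peaks in at least 6 libraries, 76.5% and 47.5% were shared. With peaks of at least median width the log2 ratio of the chromosome was -0.20, 64.5% and 52.5% were shared, 78.7% and 84.5% were called in every library, 1 bin was higher in RPMI8226, 4 domains were higher in MM.1S, and AP-1 was at 16.7%. With an overlap of 50% of both peaks 57.1% and 43.4% were shared and AP-1 was at 19.7%. With 10 Mb bins 2 were higher in RPMI8226. With a fold of 2 for bins and 3 for domains, 1 bin and 9 domains were higher in RPMI8226 and 2 domains in MM.1S. With the whole peak scanned AP-1 was at 27.5%. The interval of the promoter ratio included 0 under that scaling and under 4 other alternatives, at -0.10, -0.05, -0.08 and -0.06. Apart from what each alternative removes by construction, the cause was not tested. No paired analysis was possible because each list pools its libraries, and for the same reason no replicate could be left out. Without read counts per peak, the height of a peak cannot be weighed, the effect of differences in depth between libraries was not tested, and a line-only peak may lie below the threshold in the other line.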
